A study of Arabidopsis thaliana with 8 samples.

Results

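Cytochrome P450 genes made up 12 of the 4356 genes bound by the nuclear protein ENAP1 after ethylene, and 21 of the 5751 bound in air, in dark-grown Arabidopsis thaliana seedlings. The 215 P450 genes are the nuclear protein-coding genes whose symbol in the RefSeq gene table is a full P450 name, such as CYP86A2, out of 27444 nuclear protein-coding genes. The 4 CYP707A genes and the cyclophilins, whose symbols also begin with CYP, were left out. They were chosen by name, and split into bound and unbound by the measured positions of ENAP1 summits, the highest points of the deposited regions. A gene was counted as bound when a summit fell in a window around either gene end that reaches 1000 bp away from the gene and 500 bp into it. Counts of bound genes are therefore a description and carry no test.

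The regions came from chromatin immunoprecipitation and sequencing (ChIP-seq) with an antibody against green fluorescent protein. Seedlings of ecotype Col-0 with the ein3 eil1 double mutation, and so without these 2 transcription factors of the ethylene response, were grown for 3 days in darkness at 24 °C. They then spent 4 h either in air with 10 ppm ethylene or in the same hydrocarbon-free air alone. Each treatment had 2 ChIP samples and 2 input samples, and all groups carried the double mutation. The labels name neither the construct nor the promoter behind the tagged ENAP1, and do not say whether samples came from separate batches of seedlings. Both ChIP samples of a treatment share 1 list of regions, with 3293 regions after ethylene and 4526 in air. No value per sample and no total of reads entered the comparison, so depth is unknown, no difference between the treatments was tested, and a gene without a listed region was not shown to be free of ENAP1. The lists hold no expression values, so the labelled tissue could not be checked against marker genes.

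Cytochromes P450 are haem enzymes that insert an oxygen atom into small molecules, in plants mostly at the endoplasmic reticulum, with electrons from a reductase. They build hormones, sterols, pigments, lignin, cutin and a large store of defence compounds. They are named by sequence: a number marks the family and a letter the subfamily, and families are grouped into clans. The CYP71 clan holds many enzymes of specialised metabolism, the CYP86 clan fatty acid hydroxylases, and the CYP72 and CYP85 clans many enzymes of hormone, sterol and triterpene metabolism. ENAP1 is a nuclear protein that associates with histones and with EIN2, the central regulator of ethylene signalling.

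In the ethylene list 12 of the 215 P450 genes were bound, or 5.58% (exact 95% interval 2.92 to 9.55), where 15.9% of all genes were. In the air list 21 were bound, or 9.77% (6.15 to 14.5), where 21% of all genes were. In both lists 9 were bound (4.19%, against 13.3% of all genes), in ethylene only 3 (1.40%, against 2.59%) and in air only 12 (5.58%, against 7.68%). Altogether 24 P450 genes were bound in at least 1 list, or 11.2% (7.28 to 16.2), where 23.5% of all genes were. The intervals cover counting error only, and neighbouring genes can share a summit. The P450 share was below that of all genes in each of these classes. For ethylene only (0.289 to 4.02) and air only (2.92 to 9.55), the exact interval included the share of all genes. In ethylene only the order also depended on the window: 500 bp outside to 200 bp inside gave 4 of 215, next to 1.85% of all genes. For the ethylene list and the air list, each taken whole, the same order was found under each of the 9 other ways of counting, with 1.40% to 7.91% of P450 genes against 8.34% to 16.5% of all genes in ethylene, and 3.72% to 12.6% against 11.3% to 21.8% in air.

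Some of these ways bear on how firmly a gene was called. A window of 500 bp outside to 200 bp inside left 9 P450 genes in ethylene (4.19%, against 11.6% of all genes) and 10 in air (4.65%, against 15.8%). Keeping in each list the 50% of regions with the highest −log10 p left 3 in ethylene (1.40%, against 8.34%) and 11 in air (5.12%, against 11.3%). With summits that lie only inside another gene left out, a count chosen after seeing the data, 6 stayed bound in ethylene (2.79%, against 11.5%) and 11 in air (5.12%, against 15.5%). A wider count, with the whole gene body and 1000 bp around it, held 14 in ethylene (6.51%, against 16.5%) and 24 in air (11.2%, against 21.8%). With any base of a region in the window it was 17 in ethylene (7.91%, against 16.5%) and 27 in air (12.6%, against 21.7%). Without regions at 5 or more times the lowest local background of their list, 12 stayed in ethylene (5.58%, against 15.4%) and 20 in air (9.30%, against 20.3%).

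**Figure D1:**
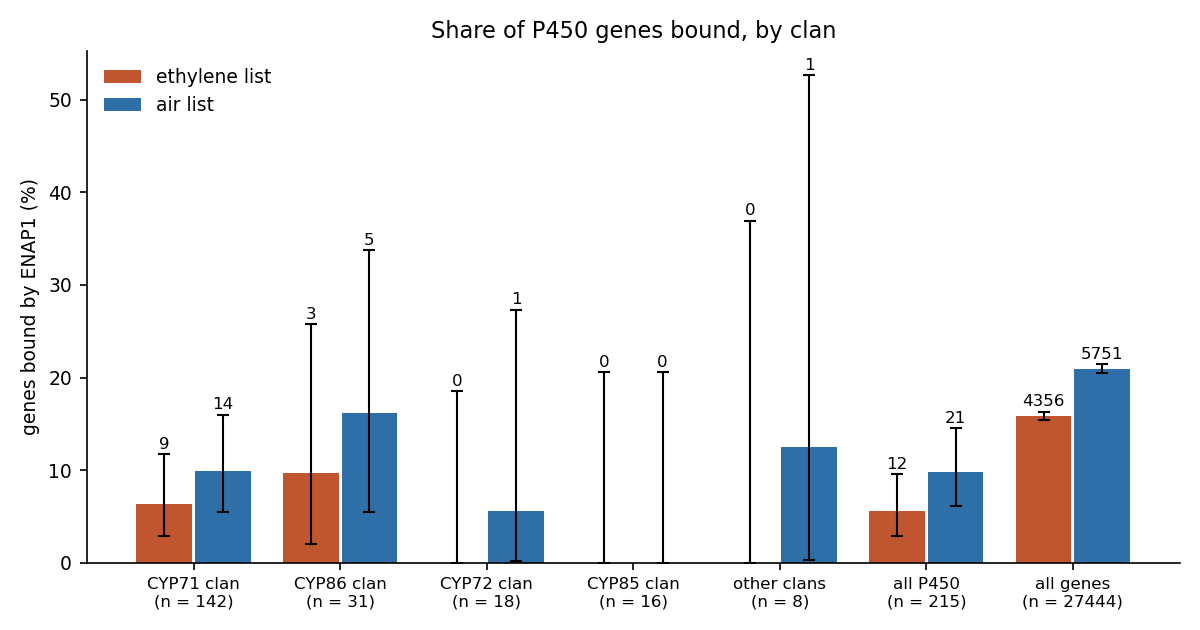
Share of genes bound by ENAP1 (%, vertical axis) in the ethylene list (left bar of each pair) and in the air list (right bar), for P450 clans, all 215 P450 genes and all 27444 genes. Error bars are exact 95% intervals for counting error, numbers above bars are bound genes, and "other clans" joins CYP51, CYP97, CYP710 and CYP711. All P450 genes together stand at 5.58% and 9.77%, below the 15.9% and 21% of all genes.

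The bound genes fell into 4 of the 8 clans, 14 of 39 families and 17 of 59 subfamilies. These counts go by symbol, so CYP91A2, also named CYP81F1, stands as a family and subfamily of its own, apart from CYP81 and CYP81F. The CYP71 clan had 9 of 142 genes bound in ethylene (6.34%) and 14 in air (9.86%). The CYP86 clan had 3 of 31 in ethylene (9.68%, 2.04 to 25.8) and 5 in air (16.1%, 5.45 to 33.7). Its intervals include the shares of all genes, 15.9% in ethylene and 21% in air. Of the 18 genes with a P450 name in the CYP72 clan, 0 were bound in ethylene (0 to 18.5%) and 1 in air (0.141 to 27.3%). These intervals include the shares of all genes too. In the CYP85 clan, which holds the small families CYP87, CYP88, CYP90, CYP702, CYP708, CYP716, CYP722 and CYP724 here, 0 of 16 genes were bound in either list, which with its exact interval allows up to 20.6%. This and the other clan counts rest on the naming rule. It leaves out 16 P450 genes under other symbols, of which 3 were bound in ethylene (BAS1, C4H and ROT3) and 7 in air. Among these 16, DWF4, CPD and ROT3, of the CYP90 family in the CYP85 clan, were bound in air, and ROT3 also in ethylene. BR6OX1, BR6OX2 and KAO2 were bound in neither list. The rest of these 16, BAS1 among them, were not placed in clans here. A clan count of 0 thus covers only genes with a P450 name. The intervals of the clans overlap each other, so the clans were not told apart.

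Families of 5 or more genes with no bound gene in either list numbered 8, with 57 genes, where 11.2% of all P450 genes and 23.5% of all genes were bound in at least 1 list. They are CYP72, CYP78, CYP79, CYP82, CYP89, CYP94, CYP96 and CYP702. CYP78A genes promote organ growth, CYP79 enzymes start glucosinolate and related pathways from amino acids, and CYP94 enzymes hydroxylate fatty acids and the active jasmonate. The subfamily CYP705A, of triterpene metabolism, had 0 of 24 genes bound in ethylene and 1 in air. CYP71A had 0 of 16 in both lists. CYP71B had 4 of 32 in ethylene and 1 in air.

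The CYP86 clan held the P450 gene with the highest enrichment in both lists. CYP704B1 (AT1G69500) encodes a hydroxylase of long fatty acids for sporopollenin, the polymer of the pollen wall. Its region had a deposited fold enrichment of 5.30 over background in the ethylene list (chr1:26126239-26126608, TAIR10) and of 9.49 in the air list (chr1:26126232-26126576). These values stood at rank 126 of 3293 in ethylene and rank 358 of 4526 in air. Fold enrichment is the authors' value for each region and belongs to the scale of its own list, so the 2 values are not compared. The summits lay 369 bp outside CYP704B1 in ethylene and 352 bp outside in air, and 122 and 105 bp inside its neighbour AT1G69510.

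CYP86A2 (AT4G00360), a fatty acid hydroxylase gene of cutin synthesis, had an enrichment of 2.22 in ethylene (rank 2769, chr4:162634-162849) and of 7.37 in air (rank 744, chr4:162502-162863). The summits were inside the gene, 294 bp from its end in ethylene and 277 bp in air. The end of its neighbour ANTR2, an anion transporter gene, was nearer, at 168 and 151 bp. Local background there was 4.96 times the lowest of the list in ethylene and 4.12 times in air.

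Of the 4 CYP86C genes, 3 were bound in air. CYP86C3 was bound in both lists, with an enrichment of 2.07 in ethylene and of 4.81 and 3.33 at 2 regions in air. CYP86C4 (4.16) and CYP86C1 (5.95) were bound in the air list only, with summits 887 and 939 bp outside. Both of these summits lay inside other genes, that of CYP86C4 54 bp inside AT1G13160 and that of CYP86C1 36 bp inside AT1G24560 and also inside AT1G24545. CYP86C2 was bound in neither list.

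In the CYP71 clan, 6 genes were bound in both lists. CYP706A2 had enrichments of 3.08 in ethylene (rank 1261) and 6.24 in air (rank 1246), with summits 254 and 204 bp outside the gene and inside AT4G22720. A second air region of CYP706A2 (6.07) had its summit 657 bp outside, between the gene and LBD32. CYP71B6, which takes part in indole metabolism, had 3.23 in ethylene (rank 1063) and 4.86 in air (rank 2506), with summits 127 and 88 bp outside. No other protein-coding gene had an end nearer than 1991 bp to either CYP71B6 summit. The local background at the CYP71B6 region was 1.06 times the lowest of the list in ethylene and equal to the lowest in air.

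CYP76C1 and CYP76C2, neighbouring genes of a subfamily that oxidises monoterpene alcohols such as linalool, shared 1 summit in each list. It had an enrichment of 2.24 in ethylene (chr2:18779334-18779523) and of 5.52 in air (chr2:18779304-18779553). That summit lay 125 and 122 bp inside CYP76C2 and 770 and 767 bp outside CYP76C1. CYP91A2, which the gene table also names CYP81F1 and which belongs to the indole glucosinolate hydroxylases, had 2.03 in ethylene and 5.20 in air, with summits 289 and 263 bp inside. CYP81G1 was bound in both lists by different regions. Its ethylene summit (2.18) lay 129 bp outside one end and 61 bp inside HOS15, a gene of a partner of histone deacetylases, and its air summit (3.36) lay 485 bp inside the gene and 305 bp inside MYBR1.

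**Figure D2:**
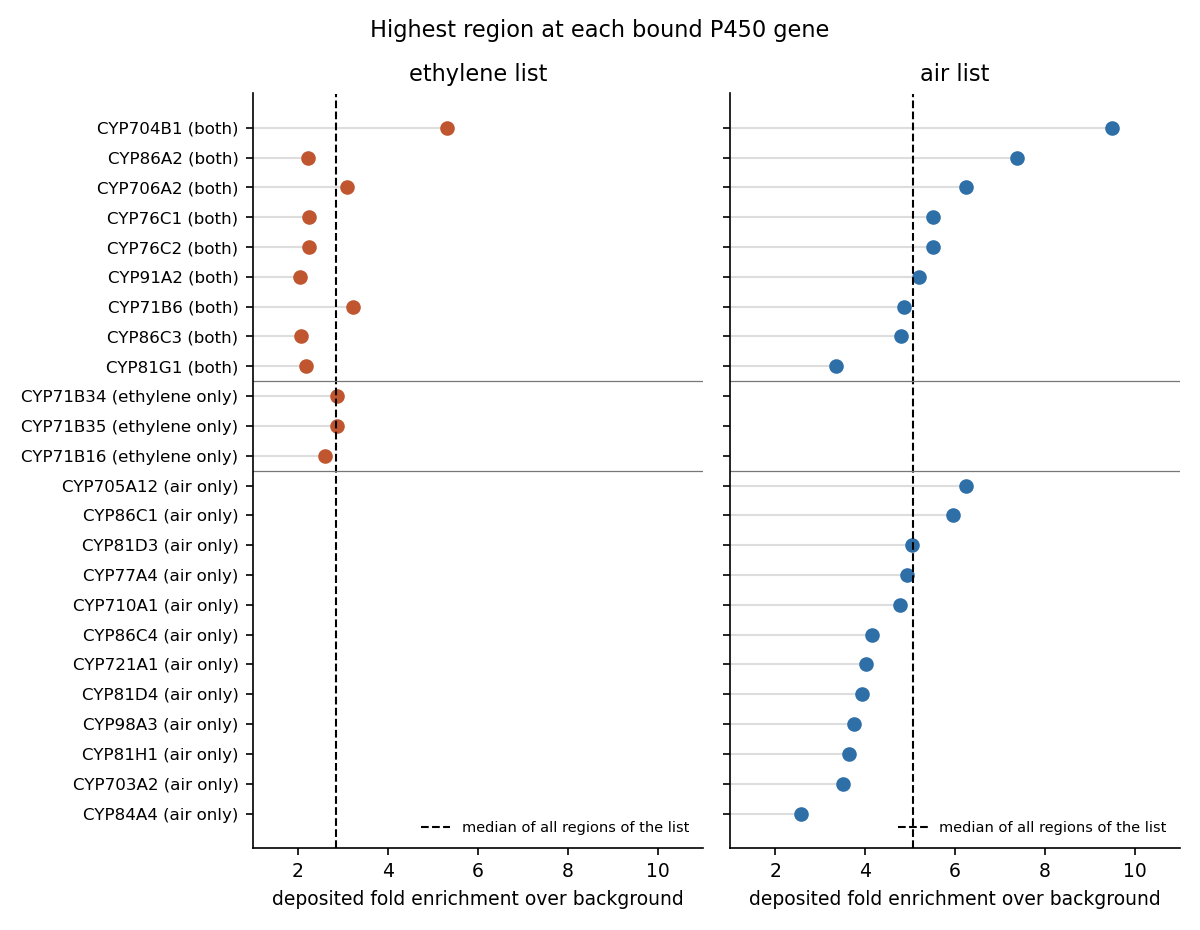
Deposited fold enrichment (ratio over local background, horizontal axis) of the highest region at each of the 24 bound P450 genes, in the ethylene list (left) and the air list (right). Dashed lines are the medians of all regions, 2.84 in ethylene and 5.06 in air, and horizontal lines separate genes bound in both lists, in ethylene only and in air only. CYP704B1 stands highest in both panels, and a gene without a point has no region in that list.

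The 3 genes bound in the ethylene list only were all of the CYP71B subfamily and all on chromosome 3. CYP71B34 and CYP71B35 shared 1 region with an enrichment of 2.86 (rank 1620, chr3:9640665-9640874), whose summit lay 161 bp inside CYP71B34 and 175 bp outside CYP71B35. At CYP71B16 the enrichment was 2.61 (rank 2098, chr3:9565129-9565279), with the summit 457 bp outside and 87 bp inside AT3G26147. The nearest air summit was 12002 bp from CYP71B34, 10141 bp from CYP71B35 and 23370 bp from CYP71B16. On chromosome 3, which carries 58 P450 genes, 3 were bound in ethylene (5.17%, against 15.9% of all its genes) and 0 in air (0%, against 21.2%).

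Among the 12 genes bound in the air list only, CYP705A12 (6.24), CYP86C1 (5.95), CYP81D3 (5.04), CYP77A4 (4.93) and CYP710A1 (4.77) had the highest enrichments. CYP705A12 is a gene of the marneral cluster of triterpene genes, CYP77A4 encodes an epoxidase of unsaturated fatty acids and CYP710A1 a sterol desaturase. The CYP710A1 summit lay 196 bp inside the gene, with the next gene 2473 bp away. The CYP77A4 summit lay 417 bp inside the gene and also inside AT5G04670, in a region of 793 bp. The CYP705A12 summit lay 939 bp outside that gene and 160 bp inside AT5G42570. The value of CYP81D3 came from a summit 660 bp outside it and 598 bp inside CYP81D4. The other air-only genes were CYP86C4 (4.16), CYP721A1 (4.02), CYP81D4 (3.93), CYP98A3 (3.75), CYP81H1 (3.64), CYP703A2 (3.50) and CYP84A4 (2.58). CYP703A2 is, like CYP704B1, a fatty acid hydroxylase of the pollen wall, CYP98A3 hydroxylates lignin precursors and CYP84A4 acts in the synthesis of arabidopyrones. CYP84A4 ranked 4496 of 4526, at a local background of 6.92 times the lowest of the list.

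Over these 12 genes the median distance from a gene end to the nearest ethylene summit was 17884 bp. For 11 of them none lay within 2000 bp. The exception was CYP705A12. Its air region overlapped an ethylene region (enrichment 2.104) whose summit lay 1006 bp outside, beyond the window, against 939 bp outside for the air summit. By the best-placed summit of each gene, the members just inside the limit of the window were CYP84A4, 449 bp inside the gene, and CYP86C1 and CYP705A12, both 939 bp outside. Just beyond it lay CYP705A33, with an air summit 1006 bp outside, and CYP86A8, with an ethylene summit 511 bp inside.

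Summits deeper in the gene body were listed at 4 P450 genes. CYP86A8, a further cutin hydroxylase gene, had them in ethylene (511 bp inside, enrichment 1.91) and in air (533 bp, 5.27, and 1188 bp, 2.86). CYP77A6, which hydroxylates fatty acids for flower cutin, had one in ethylene (616 bp, 2.16) and one in air (661 bp, 6.98). CYP79B2, which turns tryptophan into the precursor of indole glucosinolates, had one in air (555 bp, 2.90), and CYP81D4 a second one in air (598 bp, 5.04). CYP86A8, CYP77A6 and CYP79B2 had no summit in the window and were not counted as bound.

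The regions counted for P450 genes had lower median enrichments than their lists. The ethylene list held 10 of them for its 12 bound genes, with a median enrichment of 2.43 against 2.84 over all regions, and the air list 22 for its 21 bound genes, with 4.83 against 5.06. Of these, 5 of 10 in ethylene and 9 of 22 in air were in the bottom 25% of the list by enrichment. In the top 25% were 1 in ethylene (CYP704B1) and 2 in air (CYP704B1 and CYP86A2). Median width was 200 bp in ethylene against 237 bp over all regions, and 196 bp in air against 225 bp. An overlap with a region of the other list was found for 7 of 10 ethylene regions (70.0%, against 80.6% of all) and 8 of 22 air regions (36.4%, against 58.7%).

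Many summits counted for a P450 gene lay inside a neighbour. A summit inside the P450 gene itself was found for 4 of 12 bound P450 genes in ethylene (33.3%, against 54.4% of all bound genes) and for 8 of 21 in air (38.1%, against 53.7%). For 6 of the 12 in ethylene and 10 of the 21 in air, every summit counted lay outside the gene and inside another protein-coding gene. That other gene was itself a P450 for CYP76C1 in both lists, for CYP71B35 in ethylene and for CYP81D3 in air. At CYP703A2 the summit lay 376 bp outside and 121 bp inside CNX3, a gene of molybdenum cofactor synthesis. At CYP98A3 it lay 885 bp outside and 158 bp inside AT2G40860, and at CYP721A1 139 bp outside and 61 bp inside AT1G75140.

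When each summit was counted only for the gene with the nearest end, 4 P450 genes stayed bound in ethylene, against 10.5% of all genes, and 8 in air, against 14.1%. The 4 in ethylene were CYP71B6, CYP76C2, CYP71B34 and CYP91A2. In air they were CYP71B6, CYP76C2, CYP91A2, CYP710A1, CYP77A4, CYP81D4, CYP81H1 and CYP86C3. The reference table gives no strand, so a start of transcription could not be told from an end.

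**Figure D3:**
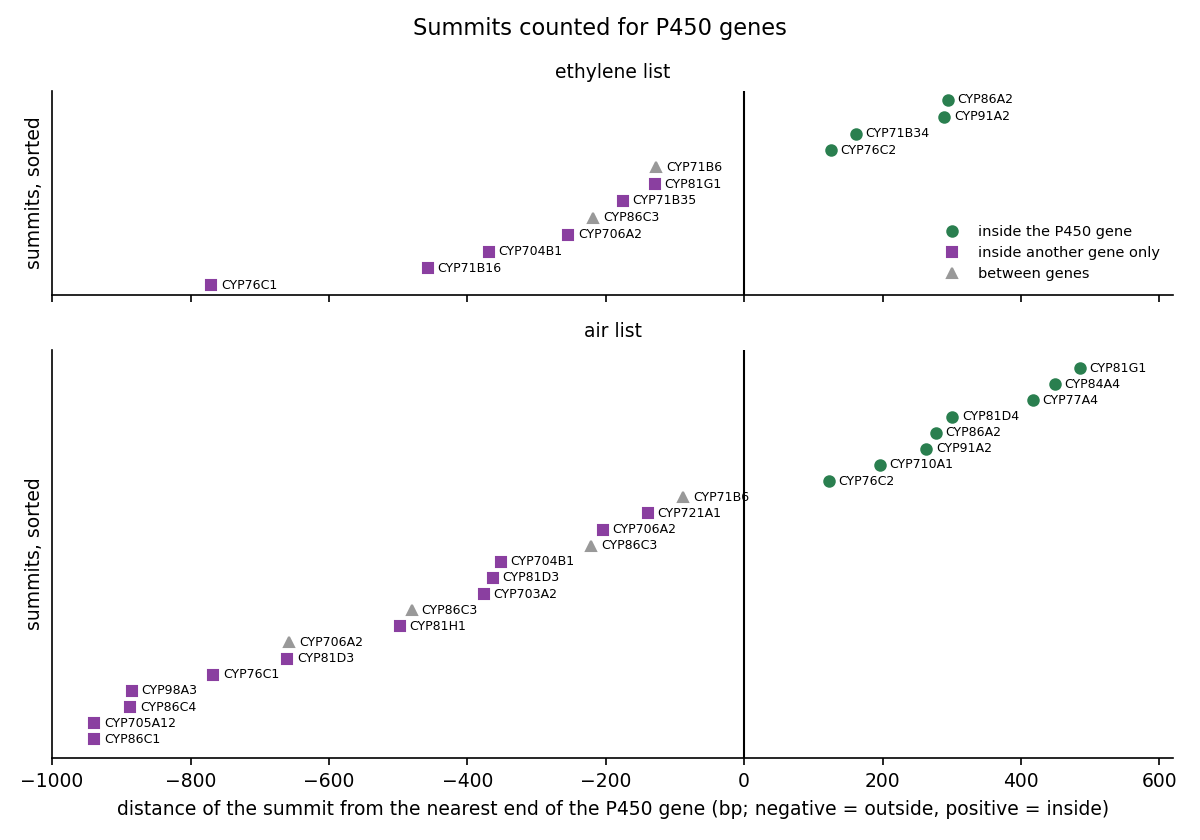
Distance of each summit from the nearest end of the P450 gene it was counted for (bp, horizontal axis, negative outside and positive inside), in the ethylene list (top) and the air list (bottom), sorted by distance. Circles lie inside the P450 gene, squares outside it but inside another protein-coding gene, and triangles between genes. Squares make up 6 of 12 points in the top panel, and the highest circle in the bottom panel is CYP81G1 at 485 bp inside.

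The spacing of genes moved with these counts, and its part in them was not tested. P450 genes had a median gap of 346 bp to the nearest protein-coding gene, against 190 bp over all genes. Among the 34 P450 genes that touch or overlap a neighbour (gap 0), 4 were bound in ethylene (11.8%, against 18.6% of all such genes) and 9 in air (26.5%, against 24.2%). At a gap of 1 to 190 bp, 4 of 49 were bound in ethylene (8.16%, against 20.5%) and 5 in air (10.2%, against 27.2%). At a gap of 191 to 759 bp, 4 of 63 were bound in ethylene (6.35%, against 15.0%) and also 4 in air (6.35%, against 20.6%). At 760 bp or more, 0 of 69 were bound in ethylene (against 9.32%) and 3 in air (4.35%, against 11.9%). In 7 of these 8 comparisons the P450 share was the lower one, the exception being gap 0 in air.

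**Figure D4:**
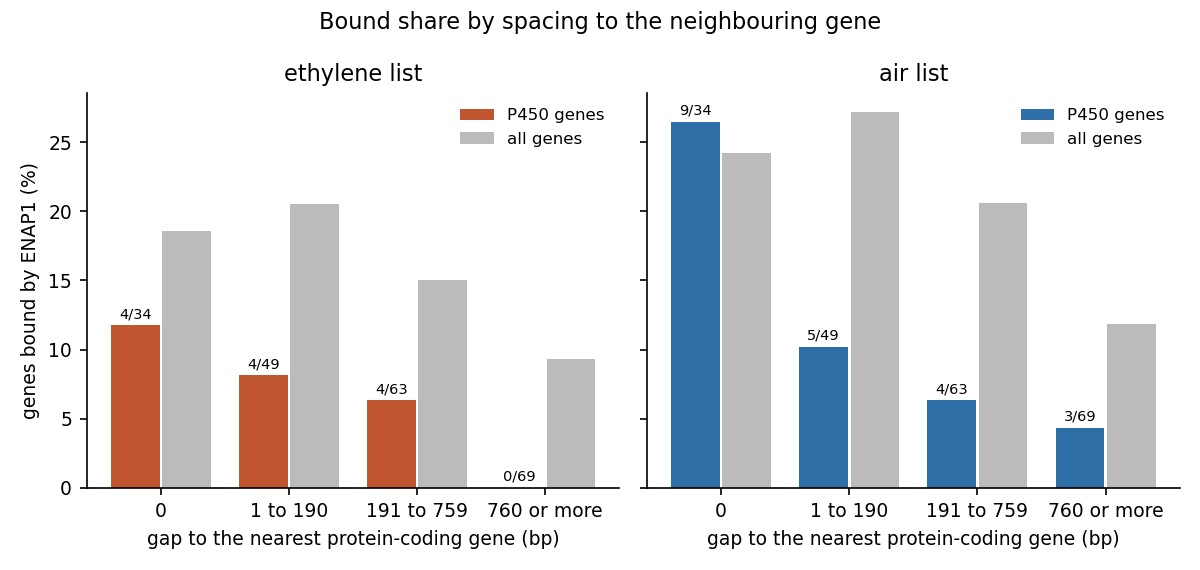
Share of genes bound (%, vertical axis) by the gap to the nearest protein-coding gene (bp, 4 classes at the quartiles of all genes), in the ethylene list (left panel) and the air list (right panel). Coloured bars are P450 genes, with bound over total above them, and grey bars all genes. In air, P450 genes at gap 0 reach 26.5% and those at 760 bp or more 4.35%.

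Gene length was alike at the median, with 2052 bp for P450 genes and 2078 bp for all genes. In the second length quartile (1324 to 2078 bp), 8 of 113 P450 genes were bound in ethylene (7.08%, against 14.9%) and 13 in air (11.5%, against 20.6%). In the third (2079 to 3030 bp), 4 of 84 were bound in ethylene (4.76%, against 19%) and 7 in air (8.33%, against 24.9%).

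Distances to the nearest summit, with the genes bound in the window included, were larger at P450 genes. The median distance from a P450 gene end to the nearest summit was 11967 bp in the ethylene list (interquartile range 5371 to 24545), against 9250 bp over all genes (2819 to 21390). In the air list it was 9442 bp (3653 to 19243), against 6496 bp (1653 to 15834). Within 5000 bp of a summit lay 23.3% of P450 genes in ethylene, against 35.0% of all genes, and 32.1% in air, against 43.6%. Most of that difference was already there within 1000 bp, with 6.51% in ethylene, against 16.3%, and 11.2% in air, against 21.5%. Within 200 bp lay 2.33% in ethylene, against 9.04%, and 1.86% in air, against 12.7%.

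**Figure D5:**
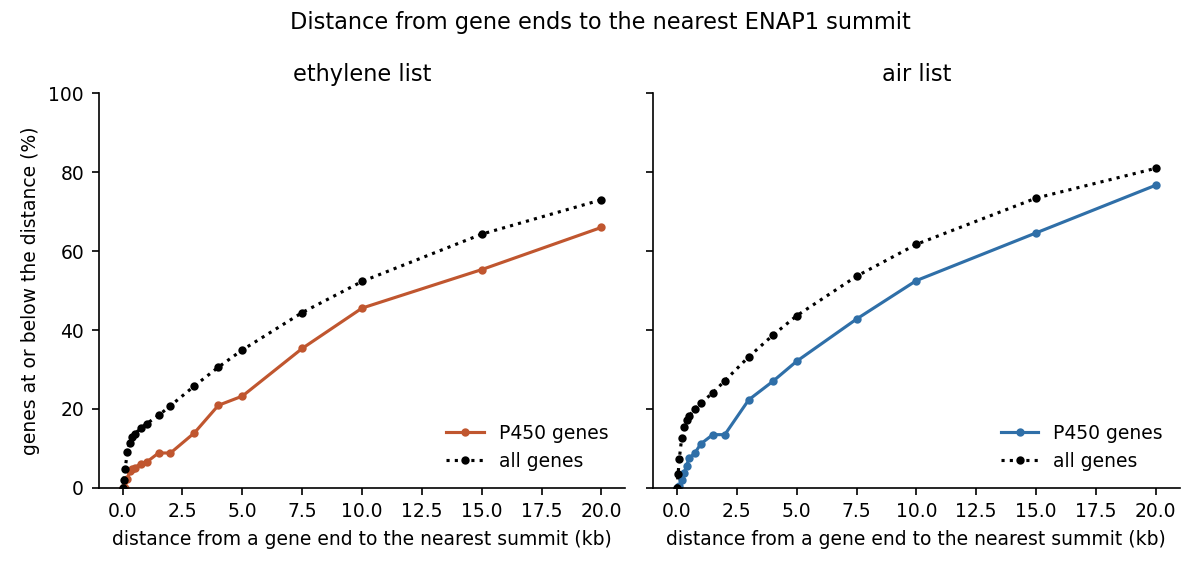
Cumulative share of genes (%, vertical axis) by the distance from a gene end to the nearest ENAP1 summit (kb, horizontal axis), for P450 genes (solid) and all genes (dotted), in the ethylene list (left) and the air list (right). The solid line stays below the dotted one, with 23.3% against 35.0% within 5 kb in ethylene and 32.1% against 43.6% in air.

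Many P450 genes stand next to another P450 gene, mostly but not always of the same family. CYP96A1 and CYP81D7 form a pair from different families. Of the 215, 107 had another P450 gene of the set as a direct neighbour, in 34 groups, and 108 stood singly. Of the genes in groups, 5 were bound in ethylene (4.67%) and 7 in air (6.54%), and of the single genes 7 in ethylene (6.48%) and 14 in air (13.0%), where all genes stood at 15.9% in ethylene and 21% in air. The 5 groups of 5 or more genes held 35 genes. In the group of 9 from CYP71B16 to CYP71B24, CYP71B16 was bound, in ethylene only. In the group of 7 from CYP71B25 to CYP71B37, CYP71B34 and CYP71B35 were, also in ethylene only. In the group of 6 from CYP81H1 to CYP81D8, CYP81H1, CYP81D4 and CYP81D3 were, in air only. The group of 6 from CYP72A7 to CYP72A13 and the group of 7 from CYP705A15 to CYP705A23 held no bound gene in either list.

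The roles of the enzymes were followed through 12 pathway lists with 113 genes, of which 37 are P450 genes of the set, 15 are P450 genes under another symbol and 61 are partner genes. Of the 37 members, 1 was bound in ethylene (CYP86A2) and 3 in air (CYP86A2, CYP98A3 and CYP710A1), or 2.70% and 8.11%. Of the 15 P450 genes under another symbol, 3 were bound in ethylene (20%) and 7 in air (46.7%), above the shares of the members and of all genes in both lists, a difference that was not tested. Of the 61 partner genes, 10 were bound in ethylene (16.4%) and 14 in air (23%), next to the 15.9% and 21% of all genes.

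Over all 215 P450 genes, 5.58% were bound in ethylene and 9.77% in air. Among the few members in hormone metabolism, that is genes with a P450 name as symbol, none was bound in either list. These were CYP90D1 and CYP72C1 of brassinosteroid metabolism, CYP88A3, CYP714A1 and CYP714A2 of gibberellin metabolism, CYP94B1, CYP94B3 and CYP94C1 that oxidise active jasmonate, CYP735A1 and CYP735A2 that form trans-zeatin cytokinins, and CYP711A1 (MAX1) of strigolactone synthesis. P450 genes of the same lists under other symbols were bound in part: 2 of 6 in ethylene (ROT3 and BAS1) and 4 of 6 in air (these and DWF4 and CPD) in brassinosteroid metabolism, and in air only 1 of 2 in gibberellin (GA3) and 1 of 2 in jasmonate metabolism (AOS). The partner genes were bound in part as well. Of 7 in jasmonate synthesis, AOC4 and JAR1 were bound in both lists, and AOC3 and OPR3 in air only. That was 28.6% in ethylene and 57.1% in air, where 15.9% and 21% of all genes were bound, and was not tested. JAR1, whose enzyme couples jasmonate to isoleucine, had an enrichment of 3.68 in ethylene (rank 651) and 9.11 in air (rank 398). MAX4, of strigolactone synthesis, was bound in air only (4.16), as was DET2, the steroid reductase of brassinosteroid synthesis (5.04).

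Among all P450 genes 5.58% were bound in ethylene and 9.77% in air. In glucosinolate synthesis none of the 8 members on the list had a summit in the window. They are CYP79F1, CYP79F2, CYP83A1, CYP79B2, CYP79B3, CYP79A2, CYP83B1 and CYP81F2. CYP79B2 had an air summit deeper in the gene, 555 bp inside. The list does not hold CYP91A2 (also named CYP81F1), which was bound in both lists. Of 9 partner genes GGP1 was bound in both lists (3.57 in ethylene and 6.48 in air). That was 11.1% in each list, where 15.9% and 21% of all genes were bound. The camalexin genes CYP71A12 and CYP71A13 were bound in neither list. In phenylpropanoid synthesis CYP98A3, the 1 member of that list, was bound in air only. Of its 3 P450 genes under other symbols, C4H was bound in both lists and FAH1 and TT7 in neither. Of 17 partner genes, PAL1, 4CL1, CSE, COMT1 and CCR1 were bound in both lists and HCT in air only. That was 29.4% in ethylene and 35.3% in air, where 15.9% and 21% of all genes were bound, and was not tested. 4CL1, which activates cinnamic acids for lignin and flavonoids, had enrichments of 2.13 in ethylene and 6.03 in air.

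In the cutin, suberin and wax list, 1 of 8 members, CYP86A2, was bound in both lists (12.5%). Of all genes 15.9% were bound in ethylene and 21% in air. CYP86A1, CYP86A4, CYP86A7, CYP86A8, CYP86B1, CYP77A6 and CYP96A15 were not bound. CYP86A8 and CYP77A6 did have summits in both lists, deeper in the gene than the window reaches. In air these included one 533 bp inside CYP86A8 (5.27) and one 661 bp inside CYP77A6 (6.98). None of the 6 partner genes of the cutin, suberin and wax list was bound. In sterol synthesis, CYP710A1 was bound in air, while CYP51G1, the sterol demethylase, and CYP710A2, CYP710A3 and CYP710A4 were bound in neither list. None of the 4 partner genes in sterol synthesis was bound. The CYP97 genes of the carotenoid list, CYP97A3 and CYP97B3, were bound in neither list, and of its 2 partner genes BETA-OHASE2, a carotene hydroxylase, was bound in ethylene only (2.60). Of 10 genes for redox and membrane partners of P450 enzymes, 1 was bound in both lists, or 10%. It was MSBP2, a scaffold of lignin P450 enzymes (2.71 in ethylene and 6.33 in air). The P450 reductase genes ATR1 and ATR2 and the 5 cytochrome b5 genes were bound in neither. These lists are short, and no count was tested against the share of all genes.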

How the data were processed

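The submitters' processing notes name BWA, the peak caller MACS2 (version 2.1.0.20150603) and the genome build TAIR10. Per the labels, a treatment's pair of ChIP samples has a single region list, and how its final regions were picked was not stated. In the authors' lists the fold enrichment is a ratio over local background and the −log10 p value refers to that background. The deposited score was not used. Local background at a summit was solved from fold and −log10 p, assuming that the caller added 1 to pile-up and background. Positions are counted from 1.

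Gene symbols, ends and neighbours came from the RefSeq gene table of TAIR10.1, without strand or sequence. Counting with the start of transcription only and the planned motif counts were not run. The genes and pathway lists were chosen with earlier results of these data known. Any overlap of 1 bp or more made regions of different lists shared. Intervals are exact (Clopper-Pearson, 95%). Families were assigned to clans from general knowledge of P450 nomenclature, and CYP91A2 went to the CYP71 clan by its other name CYP81F1. The rule for named genes took the 10 with the highest fold in each list, all bound in ethylene only, the 5 highest in air only, and those in the pathway lists, in clans of 5 or fewer genes, next to the window's limit or bound in neighbouring groups of 5 or more. The remaining bound genes, and those with summits deep inside, were named after their values were seen. The assignment of summits and the solved background were tested on simulated data. Python 3.11.15, pandas 2.3.3, numpy 2.4.6 and scipy 1.17.1 were used.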

Additional observations from a re-analysis of the deposited data

How the results depend on the processing

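Of 72 values under other settings, 39 stayed within 1.5 times the reported count. With a window of 500 bp outside to 200 bp inside, the bound P450 genes numbered 10 in air (all genes 15.8%) and 14 in either list (17.6%). They numbered 5 in both (9.74%) and 5 in air only (6.05%). In air 6 were of the CYP71 clan and 2 of the CYP86 clan. With that window, a summit inside the gene was left at 2 genes in ethylene and 2 in air. With the nearest gene end only there were 4 in ethylene (all genes 10.5%), 8 in air (14.1%) and 9 in either list (16.0%). There were 3 in both (8.61%), 1 in ethylene only (1.93%) and 5 in air only (5.45%). The CYP71 clan then had 4 in ethylene and 6 in air, and the CYP86 clan 0 in ethylene and 1 in air. With each list reduced to its 50% of regions with the highest −log10 p there were 3 in ethylene (all genes 8.34%) and 11 in air (11.3%). There were 11 in either list (12.9%), 3 in both (6.73%) and 0 in ethylene only (1.61%). The CYP71 clan then had 1 in ethylene and 7 in air. Leaving out summits that lie only inside another gene was chosen after seeing the data. It gave 6 in ethylene (all genes 11.5%), 11 in air (15.5%) and 12 in either list (17.6%). It also gave 5 in both (9.35%), 1 in ethylene only (2.11%) and 6 in air only (6.19%). Any base of a region in the window gave 14 in both lists (all genes 13.8%). With the air list shortened to the length of the ethylene list, 5 were bound in ethylene only (all genes 4.25%) and 9 in air only (4.22%). Fewer summits or a smaller window enter by construction in most of these. No paired analysis was possible because the 2 ChIP samples of a treatment enter a single list, and no replicate could be left out for the same reason. Without depths per library, weak regions absent from a list cannot be told from missing coverage.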

Other observations

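The gene table gives 16 further P450 genes under another symbol. In ethylene 3 of these 16 were bound and in air 7 of 16, and the difference from the 215 was not tested. BAS1, whose enzyme inactivates brassinosteroids, was bound in both lists (enrichment 3.27 in ethylene and 7.08 in air), as were ROT3 of brassinosteroid synthesis (1.98 in ethylene and 4.93 in air) and C4H, the cinnamate hydroxylase (2.25 in ethylene and 3.90 in air). DWF4 (5.09) and CPD (3.24) of brassinosteroid synthesis, GA3 of gibberellin synthesis (3.97) and AOS of jasmonate synthesis (5.33) were bound in air only. KAO2, UNE9, PAD3, BR6OX1, BR6OX2, LUT1, HPL1, FAH1 and TT7 were bound in neither list. With these genes added, 15 of 231 P450 genes were bound in ethylene (6.49%, against 15.9% of all genes) and 28 in air (12.1%, against 21%).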
